A study of Homo sapiens with 28 samples.

Results

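Band 12p13 is the end of the short arm of human chromosome 12 (12p), and 47 of its genes, from KDM5A nearest the telomere to PEX5 nearest the centromere, were followed across embryonal carcinoma (EC) and embryonic stem (ES) cell lines. The 47 were listed by name from this band, with earlier results of these data known, and 31 other measured genes of the same stretch were not listed. Of the 47, 42 had a transcript cluster annotated to that 1 symbol, among 14220 genes measured this way in the series. A transcript cluster is a gene-level summary of probes on the array, and a gene can have more than 1. ITFG2, NCAPD2, GAPDH, CHD4 and PHB2 had no such cluster and were read from their probesets, which are small groups of probes, mostly 1 exon each.

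The study measured RNA on Affymetrix Human Exon 1.0 ST arrays, with 14 arrays summarised at gene and at exon level. EC lines are the cultured stem cells of germ cell tumours, and ES lines come from embryos. In all groups the cells had been sorted for SSEA3, a cell surface antigen of pluripotent cells. On plastic, in high-glucose DMEM with fetal calf serum, grew the 5 EC lines 2102Ep, 833KE, NCCIT, NTERA2 and TERA1. Of these 2102Ep, 833KE and NTERA2 were also cultured like the ES lines (n = 3), in knock-out DMEM with serum replacement and FGF on a layer of mitotically inactivated fibroblasts from mouse embryos, called feeders. The 6 ES lines, H9, H14, Shef3, Shef5, Shef6 and Shef7, were cultured in that way only. Each array is a different line or growth condition, so the error given here is the spread between lines, and no line was repeated under the same condition. EC lines on plastic differed from ES lines in medium and surface as well as in origin.

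Extra copies of 12p, often as an isochromosome of the short arm, are a classical chromosome change of germ cell tumours of the adult testis. NCCIT is known to come from a mediastinal germ cell tumour and the other lines from testicular ones. The distal end of the arm is dense in genes of unlike function, among them glycolytic enzymes, DNA repair proteins, ribosome assembly factors, chromatin regulators, and the receptors of the tumour necrosis factor family TNFRSF1A and LTBR. No copy number was measured in these samples, so levels of RNA are all that is described.

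Gene-level array medians lay between 6.19 and 6.39 on the log2 scale. Of 12 markers of pluripotent cells 8 had a cluster, and 7 of these were above the median cluster in every array. POU5F1 and SOX2, read from their brightest probesets, were at 8.04 to 9.28 and 11.27 to 11.94 in EC on plastic, at 9.04 to 10.11 and 10.48 to 11.30 in EC on feeders, and at 7.25 to 9.18 and 11.41 to 11.89 in ES lines. NANOG, itself a 12p gene, was at 11.58 to 12.85 in EC on plastic and at 11.23 to 12.43 in EC on feeders, against 9.41 to 11.57 in ES lines, so that EC on plastic and ES did not overlap. Of 13 fibroblast markers, included because of the feeders, 2 were above the median cluster in every array. The summed level of the 13, as log2, was 10.04 to 11.38 in EC on plastic, 11.17 to 11.80 in EC on feeders and 10.79 to 12.05 in ES lines. These sums overlapped, but most markers were higher in ES lines. Of the 13, 2 had a higher mean in EC on plastic than in ES lines, and 3 in EC on feeders. THY1, at 7.99 to 10.77 in EC on plastic and 7.81 to 9.67 in ES lines, was among those higher in EC. The part of fibroblast RNA in the differences below was not tested. In bulk samples, fewer cells of a type and less RNA per cell cannot be told apart.

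In EC lines on plastic, 27 of the 42 genes were higher than in ES lines and 0 were lower (limma, adjusted p under 0.05 over all 22011 clusters). Over all clusters 3.26% were called higher and 1.34% lower. The median difference of the 42 genes was 1.15 on the log2 scale, against 0.0046 over all clusters, and 41 of the 42 differences were above 0. In 23 genes all 5 EC arrays lay above all 6 ES lines, a pattern that 2.85% of all clusters showed. At an unadjusted p under 0.05 in either direction the count was 33, where 19.2% of all clusters were. Without NCCIT 31 genes were called, while over all clusters those called higher went from 718 to 853. The labels give each array its own code number, whose meaning they do not state. The codes run up to 13 for H14, Shef5 and the NTERA2 and 2102Ep cultures on feeders (low codes) and from 17 for the other 10 arrays (high codes). Among high-coded arrays alone, 5 EC and 4 ES lines, 21 genes were called, all of them higher. Over all clusters 376 were called higher in that run.

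**Figure D1:**
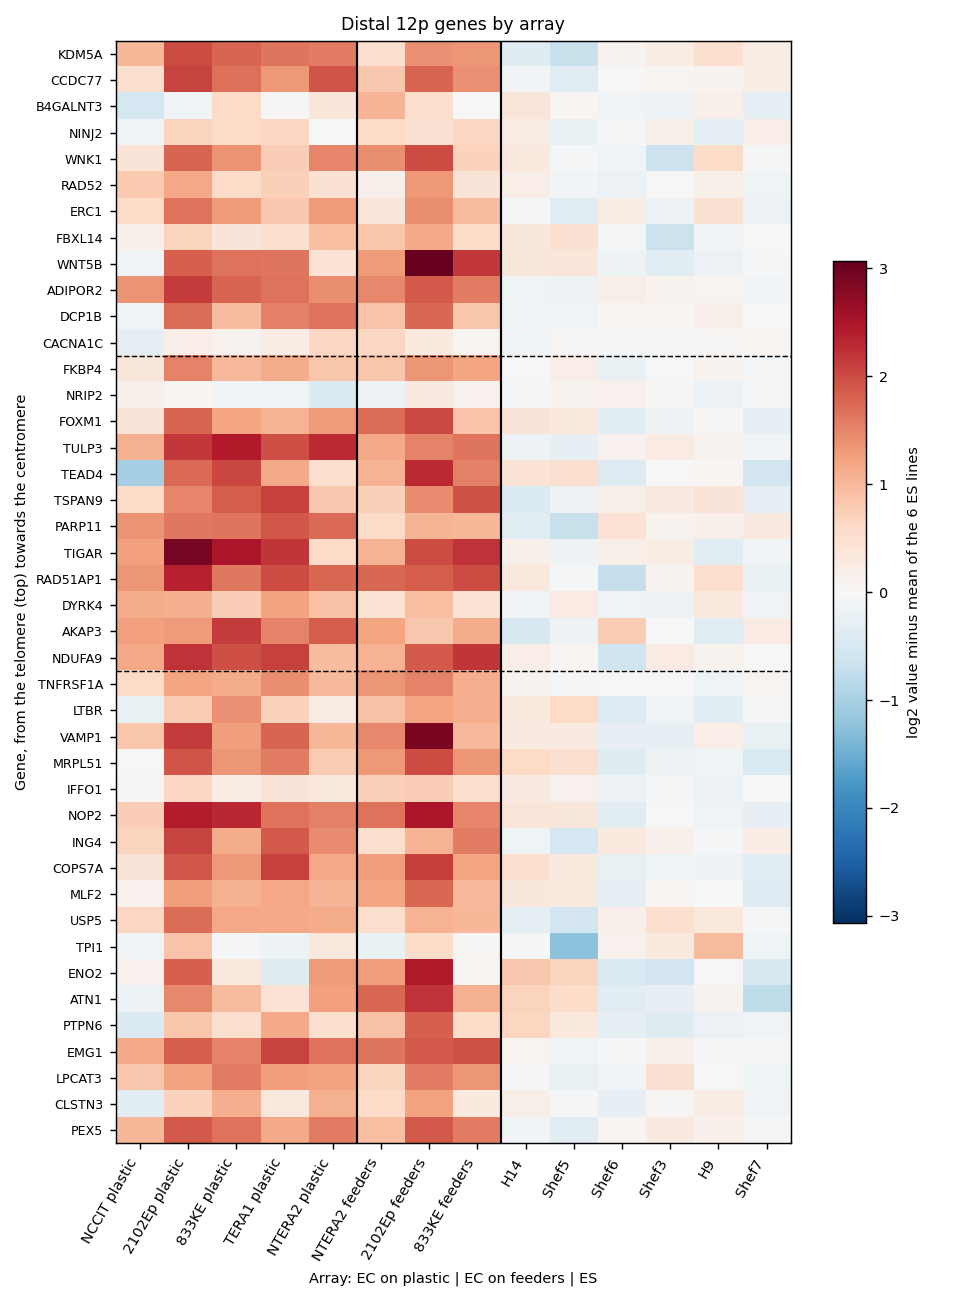
Level of each of the 42 genes (rows, from the telomere at the top) in each of the 14 arrays (columns: EC on plastic, EC on feeders, ES), as the log2 value minus the mean of the 6 ES lines; dashed lines mark the widest gaps between genes along the arm. Most EC tiles are above 0, NCCIT is the palest EC column, and NRIP2 and CACNA1C are the palest rows.

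Below, values in EC on plastic are log2 levels in the order NCCIT, 2102Ep, 833KE, TERA1 and NTERA2, values in EC on feeders are in the order NTERA2, 2102Ep and 833KE, and those in ES are the lowest, the median and the highest of the 6 lines. Differences are on the log2 scale with their standard error (SE), and adjusted p-values are limma's. Levels of different genes come from different probes and are not compared with each other.

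The role groups are loose, and TULP3 and PARP11 are described below by functions other than those of their groups. Of the 7 measured genes grouped under chromatin and transcription, 4 were higher in EC on plastic. TULP3, a tubby-family protein that carries receptors into the primary cilium, had the largest difference of all 42. Its level was 8.43, 9.50, 9.78, 9.32 and 9.63 in EC on plastic and 8.49, 8.85 and 8.99 in EC on feeders, against 7.09, 7.36 and 7.59 in ES. TULP3 was 3.97-fold higher on plastic (difference 1.99, SE 0.22, adjusted p = 0.000931) and 2.71-fold higher on feeders (1.44, SE 0.17, adjusted p = 0.00542). No EC array overlapped the ES lines, and NCCIT and the feeder cultures were the lowest of the EC arrays. KDM5A, a demethylase of histone H3 lysine 4, was at 9.50, 10.48, 10.27, 10.12 and 10.04 in EC on plastic and at 8.99, 9.87 and 9.82 in EC on feeders, against 7.79, 8.65 and 8.98 in ES. KDM5A was 3.03-fold higher on plastic (1.60, SE 0.23, adjusted p = 0.00422). On feeders it differed by 1.08 (SE 0.29, adjusted p = 0.0872), with NTERA2 just above the highest ES line. KDM5A was called on feeders with the code range as a block (1.30, adjusted p = 0.0253) and without NTERA2 (1.37, adjusted p = 0.0468).

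FOXM1, a transcription factor that drives genes of mitosis, was at 9.31, 10.69, 10.12, 9.97 and 10.22 in EC on plastic and at 10.62, 10.94 and 9.79 in EC on feeders, against 8.59, 8.85 and 9.30 in ES. It was 2.22-fold higher on plastic (1.15, SE 0.23, adjusted p = 0.0159) and 2.91-fold higher on feeders (1.54, SE 0.27, adjusted p = 0.0196). NCCIT was just above the highest ES line and the other EC arrays were clear of it. The call on feeders was lost without 2102Ep (adjusted p = 0.0757) or without Shef3 (0.0541). ING4, a reader of methylated histone H3, was the fourth gene called (1.44, adjusted p = 0.00839).

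TEAD4, the DNA-binding partner of the Hippo pathway's YAP, was at 6.85, 9.60, 9.92, 9.04 and 8.38 in EC on plastic and at 8.95, 10.16 and 9.41 in EC on feeders, against 7.32, 7.89 and 8.36 in ES. NCCIT was below every ES line, and the other EC arrays were above them all. The difference was 0.89 on plastic (SE 0.47, adjusted p = 0.334), and 1.36 without NCCIT (adjusted p = 0.0269). On feeders TEAD4 was 3.10-fold higher (1.63, SE 0.31, adjusted p = 0.0266), a call lost under 5 of 9 left-out arrays and in 1 fit of all 14 arrays (0.143). ATN1, the corepressor atrophin-1, differed by 0.79 on plastic (adjusted p = 0.217) and was 3.22-fold higher on feeders (adjusted p = 0.0372), a call ended by 6 of 9 left-out arrays (adjusted p up to 0.138) and by 1 fit of all 14 arrays (0.0501).

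NRIP2, which binds nuclear receptors, was the single gene of the 42 with a difference below 0 on plastic. It was at 5.11, 5.00, 4.86, 4.81 and 4.51 in EC on plastic and at 4.80, 5.23 and 5.09 in EC on feeders, against 4.76, 4.96 and 5.09 in ES. The groups overlapped, the differences were -0.095 on plastic (adjusted p = 0.760) and 0.086 on feeders (adjusted p = 0.830), and the gene was dimmer than the median cluster of 6.30. CHD4, the ATPase of the NuRD remodelling complex, had 48 probesets, each with a higher mean in EC on plastic, by a median of 0.35, and 0 of them called. PHB2, a prohibitin of the inner mitochondrial membrane that also acts as a corepressor, had 10 of 10 probesets with a higher mean, by a median of 0.96, and 4 called.

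**Figure D2:**
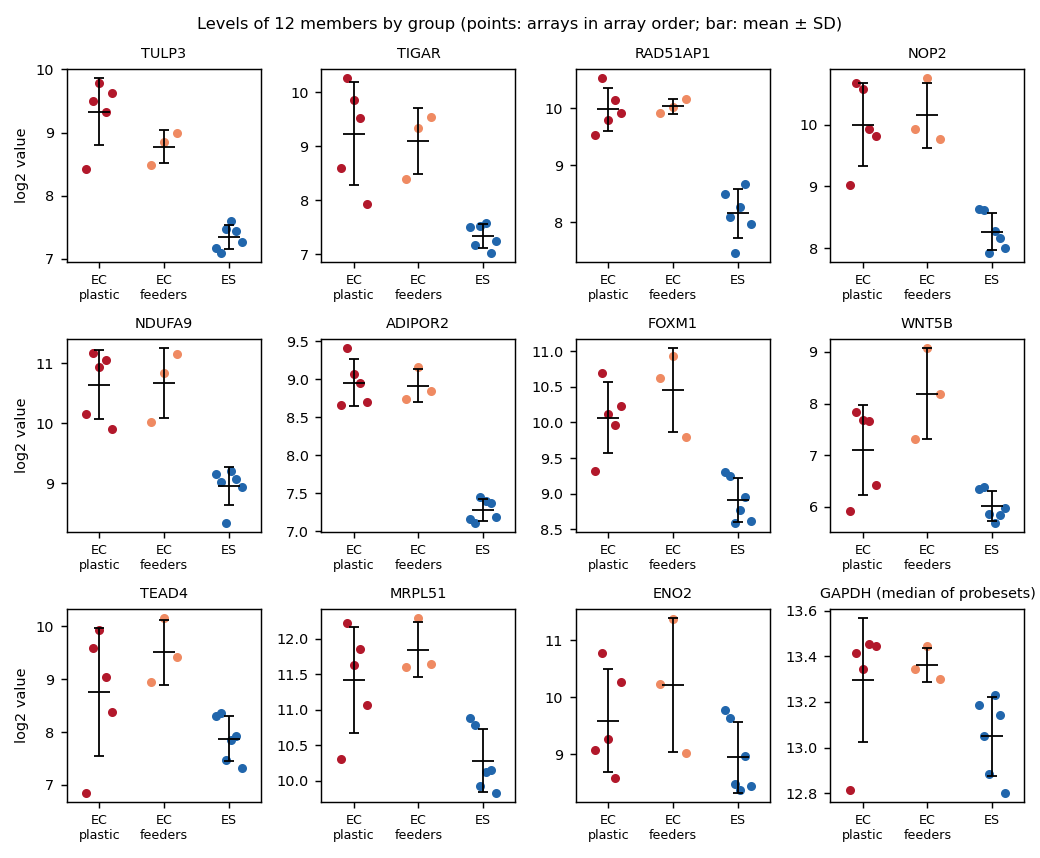
Log2 levels of 12 genes in EC on plastic (n = 5), EC on feeders (n = 3) and ES lines (n = 6), 1 point per array, with the mean and SD; GAPDH is the median of its probesets. NCCIT is the first point on plastic and the lowest of the 5 EC points in most panels, while in TIGAR and NDUFA9 the lowest is NTERA2, the last point, and in ENO2 it is TERA1.

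All 3 measured genes grouped under DNA repair and chromosomes were higher in EC on plastic. RAD51AP1, which acts in DNA repair by homologous recombination, was at 9.52, 10.53, 9.79, 10.15 and 9.92 in EC on plastic and at 9.91, 10.02 and 10.16 in EC on feeders, against 7.46, 8.18 and 8.67 in ES. It was 3.53-fold higher on plastic (1.82, SE 0.23, adjusted p = 0.00192) and 3.66-fold higher on feeders (1.87, SE 0.24, adjusted p = 0.00637). Even the lowest EC array, NCCIT, was well above the highest ES line. PARP11, an enzyme that adds single ADP-ribose units to proteins, was at 7.79, 8.04, 8.07, 8.33 and 8.15 in EC on plastic and at 6.99, 7.47 and 7.43 in EC on feeders, against 5.74, 6.55 and 6.87 in ES. It was 3.16-fold higher on plastic (1.66, SE 0.20, adjusted p = 0.00141), and on feeders it differed by 0.88 (SE 0.25, adjusted p = 0.104) without overlap of the groups. With the code range as a block PARP11 was called there (1.07, adjusted p = 0.0286).

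RAD52, which anneals single DNA strands, was higher by 0.76 on plastic (adjusted p = 0.0136), a call lost when the 3 lines also grown on feeders stood alone for EC. NCAPD2, a subunit of the condensin complex that compacts mitotic chromosomes, had 44 of 44 probesets with a higher mean in EC on plastic. The median over its probesets was 9.92, 11.94, 11.31, 10.87 and 11.83 in EC on plastic and 11.40, 11.61 and 11.34 in EC on feeders, against 9.60, 10.01 and 10.26 in ES. NCCIT lay inside the ES range and the other EC arrays above it, and 11 of the 44 probesets were called.

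Of the 4 measured genes of glycolysis and energy metabolism 2 were higher on plastic. TIGAR, a phosphatase that lowers fructose-2,6-bisphosphate and so slows glycolysis, was at 8.59, 10.26, 9.85, 9.53 and 7.93 in EC on plastic and at 8.40, 9.33 and 9.55 in EC on feeders, against 7.02, 7.38 and 7.58 in ES. It was 3.71-fold higher on plastic (1.89, SE 0.36, adjusted p = 0.0120) and 3.37-fold higher on feeders (1.75, SE 0.25, adjusted p = 0.00875). No EC array overlapped ES, and NTERA2 was the lowest EC line in both conditions. Among high-coded arrays alone the difference on plastic was also 1.89, without a call (adjusted p = 0.0542). The call of TIGAR on feeders was lost in 1 fit of all 14 arrays (adjusted p = 0.0560). NDUFA9, an accessory subunit of respiratory complex I, was at 10.15, 11.18, 10.94, 11.05 and 9.91 in EC on plastic and at 10.02, 10.84 and 11.15 in EC on feeders, against 8.33, 9.05 and 9.20 in ES. It was 3.23-fold higher on plastic (1.69, SE 0.25, adjusted p = 0.00464) and 3.29-fold higher on feeders (1.72, SE 0.27, adjusted p = 0.0128; 0.0555 without 2102Ep).

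ENO2, the neuronal enolase, was at 9.08, 10.78, 9.27, 8.59 and 10.26 in EC on plastic and at 10.24, 11.38 and 9.03 in EC on feeders, against 8.37, 8.73 and 9.78 in ES. The EC lines scattered across and above the ES range, and the differences were 0.64 on plastic (adjusted p = 0.441) and 1.27 on feeders (adjusted p = 0.219). TPI1, triosephosphate isomerase, had a cluster among the dimmest, at 3.44, 4.40, 3.48, 3.37 and 3.85 in EC on plastic and at 3.33, 4.11 and 3.58 in EC on feeders, against 2.28, 3.60 and 4.51 in ES. That cluster differed by 0.17 on plastic (SE 0.33, adjusted p = 0.840) with full overlap. Of its 17 probesets, 16 were brighter than the median probeset, and the dim one had the same difference as the cluster. The median over the 17 was 11.15, 12.50, 11.98, 12.10 and 11.98 in EC on plastic and 12.30, 12.71 and 11.95 in EC on feeders, against 10.29, 10.86 and 11.77 in ES. All 17 had a higher mean on plastic, by a median of 0.94, and 1 was called. At an unadjusted p under 0.05 there were 16 of the 17, where 48931 of all 287329 probesets were. The uncalled cluster, which stands for TPI1 in the counts of genes, therefore does not show what the brighter probesets do.

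GAPDH, the glycolytic dehydrogenase often used as a loading control, has many processed copies in the genome that its probes may also detect. The median of its 13 probesets was 12.81, 13.42, 13.34, 13.46 and 13.45 in EC on plastic and 13.34, 13.45 and 13.30 in EC on feeders, against 12.80, 13.10 and 13.23 in ES. NCCIT lay at the bottom of the ES range, and each of the other EC arrays was above the highest ES line. All 13 probesets had a higher mean on plastic, by a median of 0.29, with 0 called and 2 at an unadjusted p under 0.05.

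Of the 4 genes of RNA and the ribosome 3 were higher on plastic and all 4 on feeders. NOP2, a methyltransferase of large-subunit ribosomal RNA, was at 9.02, 10.68, 10.58, 9.93 and 9.82 in EC on plastic and at 9.94, 10.76 and 9.77 in EC on feeders, against 7.92, 8.22 and 8.63 in ES. It was 3.33-fold higher on plastic (1.74, SE 0.28, adjusted p = 0.00627) and 3.70-fold higher on feeders (1.89, SE 0.25, adjusted p = 0.00695). EMG1, a methyltransferase needed to assemble the small ribosomal subunit, was at 8.67, 9.35, 9.01, 9.57 and 9.17 in EC on plastic and at 9.14, 9.37 and 9.44 in EC on feeders, against 7.38, 7.46 and 7.66 in ES. It was 3.15-fold higher on plastic (1.66, SE 0.16, adjusted p = 0.000394) and 3.53-fold higher on feeders (1.82, SE 0.14, adjusted p = 0.000641). Both genes had EC arrays clear of all ES lines, and the ES lines spread little for EMG1.

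MRPL51, a protein of the large mitochondrial ribosomal subunit, was at 10.30, 12.22, 11.64, 11.85 and 11.07 in EC on plastic and at 11.60, 12.30 and 11.65 in EC on feeders, against 9.83, 10.14 and 10.89 in ES. NCCIT lay within the ES range and the other EC arrays above it. The difference on plastic was 1.13 (SE 0.33, adjusted p = 0.0759), and 1.41 without NCCIT (adjusted p = 0.0130). On feeders MRPL51 was 2.96-fold higher (1.57, SE 0.28, adjusted p = 0.0212). That call was lost without 2102Ep (0.0852) or Shef3 (0.0562), and in 1 fit of all 14 arrays (0.0528). DCP1B, a cofactor of mRNA decapping, was 2.23-fold higher on plastic (adjusted p = 0.0429), but 10 of 11 left-out arrays ended that call. On feeders it was 2.24-fold higher (adjusted p = 0.0214), a call lost without Shef3 (0.0555) and in 1 fit of all 14 arrays (0.107).

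Among receptors, ligands and signalling enzymes 5 of 8 were higher on plastic. ADIPOR2, a receptor for the fat-cell hormone adiponectin, was at 8.66, 9.41, 9.07, 8.95 and 8.69 in EC on plastic and at 8.74, 9.16 and 8.85 in EC on feeders, against 7.11, 7.28 and 7.45 in ES. It was 3.20-fold higher on plastic (1.68, SE 0.15) and had the smallest adjusted p of the 42 genes there (0.000349). On feeders it was 3.11-fold higher (1.64, SE 0.15, adjusted p = 0.00155). Every EC array, NCCIT included, was more than 1 log2 unit above every ES line. AKAP3, an anchoring protein for protein kinase A known from the sperm tail, was at 6.04, 6.09, 6.92, 6.31 and 6.63 in EC on plastic and at 5.98, 5.59 and 5.90 in EC on feeders, against 4.28, 4.69 and 5.54 in ES. It was 3.08-fold higher on plastic (1.62, SE 0.24, adjusted p = 0.00432), and on feeders it differed by 1.05 (SE 0.26, adjusted p = 0.0690). The mean of AKAP3 over all arrays was below the median cluster of 6.30, and 3 of its 12 probesets were brighter than the median probeset.

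WNT5B, a secreted ligand of the WNT family, was at 5.92, 7.84, 7.68, 7.66 and 6.42 in EC on plastic and at 7.31, 9.08 and 8.18 in EC on feeders, against 5.68, 5.91 and 6.37 in ES. On plastic NCCIT was inside the ES range and NTERA2 just above it, while the feeder cultures were all clear of ES. WNT5B was 4.53-fold higher on feeders (2.18, SE 0.33, adjusted p = 0.0114), the largest difference of the 42 genes in that comparison. On plastic the difference was 1.09 (SE 0.34, adjusted p = 0.0925), and 1.39 without NCCIT (adjusted p = 0.0138).

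TNFRSF1A, the main receptor for tumour necrosis factor, was higher by 1.07 on plastic (adjusted p = 0.00233) and 1.33 on feeders (adjusted p = 0.00270). The related LTBR differed by 0.58 on plastic (adjusted p = 0.279) and was higher by 1.07 on feeders (adjusted p = 0.0413). There 7 of 9 left-out arrays ended the call, as did 1 fit of all 14 arrays (0.0945). The kinase DYRK4 was higher by 1.03 on plastic (adjusted p = 0.00284), and differed by 0.59 on feeders (adjusted p = 0.128). DYRK4 and LTBR were dimmer than the median cluster, with 4 of 15 and 7 of 20 probesets brighter than the median probeset. WNK1, a kinase that controls chloride cotransporters, was higher by 1.16 on plastic (adjusted p = 0.0339), a call ended by 8 of 11 left-out arrays. Its second, dimmer cluster differed by 0.92 (adjusted p = 0.0377). PTPN6, the tyrosine phosphatase of blood cell signalling, differed by 0.52 (adjusted p = 0.337). ITFG2, a part of a complex that restrains mTOR signalling, had 19 of 20 probesets with a higher mean on plastic and 9 called.

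Of 4 genes of protein turnover and folding 3 were higher on plastic. FKBP4, an immunophilin that works with the chaperone HSP90, was higher by 0.98 (adjusted p = 0.0121), USP5, which takes apart free ubiquitin chains, by 1.17 (adjusted p = 0.0133), and COPS7A, a subunit of the COP9 signalosome, by 1.38 (adjusted p = 0.0187; 0.0510 without 2102Ep). FBXL14, an F-box protein that selects targets for ubiquitination, differed by 0.53 (adjusted p = 0.176). Among membrane, vesicle and adhesion genes 3 of 6 were called. VAMP1, a vesicle fusion protein, was higher by 1.42 (adjusted p = 0.00671), the tetraspanin TSPAN9 by 1.37 (adjusted p = 0.0166), and ERC1, a scaffold of vesicle release sites, by 1.14 (adjusted p = 0.0103). The second cluster of TSPAN9 differed by 0.85 (adjusted p = 0.0445). USP5 (0.94, adjusted p = 0.0524), TSPAN9 (1.23, 0.0813) and ERC1 (1.05, 0.0538) were not called among high-coded arrays alone, nor TSPAN9 with the code range as a block (0.0526). NINJ2, an adhesion protein, differed by 0.37 (adjusted p = 0.307) and the calsyntenin CLSTN3 by 0.58 (adjusted p = 0.212).

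CACNA1C, the pore subunit of the cardiac L-type calcium channel, was at 4.61, 5.09, 5.00, 5.11 and 5.53 in EC on plastic and at 5.52, 5.19 and 4.96 in EC on feeders, against 4.81, 4.88 and 4.97 in ES. These levels are below the median cluster, the groups overlapped, and the difference on plastic was 0.18 (SE 0.15, adjusted p = 0.570). Of 3 genes of lipids, glycans and peroxisomes 2 were called: PEX5, the import receptor of peroxisomal enzymes (1.46, adjusted p = 0.00141), and LPCAT3, which builds polyunsaturated phospholipids (1.24, adjusted p = 0.00233). The third, B4GALNT3, a glycan-modifying transferase, was at 6.28, 6.71, 7.44, 6.86 and 7.21 in EC on plastic and at 7.86, 7.35 and 6.82 in EC on feeders, against 6.54, 6.80 and 7.18 in ES. EC and ES values were interleaved, and the difference on plastic was 0.077 (SE 0.20, adjusted p = 0.887). Of the genes left, CCDC77 (1.51, adjusted p = 0.00688) and MLF2 (0.94, adjusted p = 0.0322) were higher, and IFFO1, of the intermediate filament family, differed by 0.32 (adjusted p = 0.220). The call of MLF2 was ended by 7 of 11 left-out arrays.

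The level of the 42 genes differed between EC lines. Relative to the mean of the 6 ES lines, their median was 0.45 in NCCIT, 1.69 in 2102Ep, 1.29 in 833KE, 1.21 in TERA1 and 1.06 in NTERA2 on plastic. On feeders it was 0.91 in NTERA2, 1.55 in 2102Ep and 1.10 in 833KE. The single ES lines ran from -0.091 in Shef6 to 0.18 in H14, so every EC array stood outside the ES spread. The SD of the 5 medians on plastic was 0.45, and 833KE, TERA1 and NTERA2 were closer together than that. When each array was first centred on its own median over all clusters, the values on plastic ran from 0.44 in NCCIT to 1.68 in 2102Ep. Against the high-coded ES lines alone they ran from 0.48 to 1.62 on plastic, and 833KE on feeders, also high-coded, was at 1.13. Against H14 and Shef5, which also have low codes, NTERA2 and 2102Ep on feeders were at 0.91 and 1.61.

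**Figure D3:**
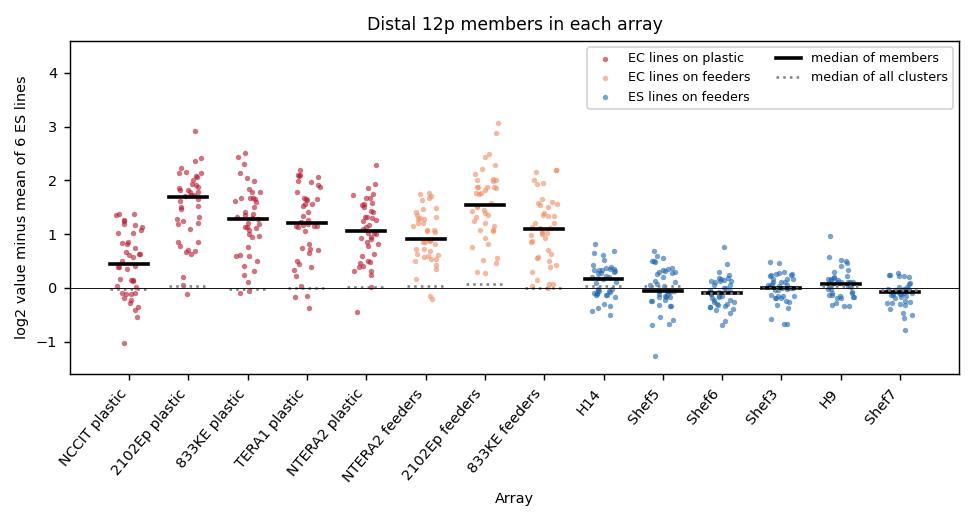
Log2 value minus the mean of the 6 ES lines for each of the 42 genes (points) in each array, with the median of the 42 (black bar) and of all clusters (dotted). The EC medians run from 0.45 in NCCIT to 1.69 in 2102Ep on plastic, and the ES medians stay between -0.091 and 0.18.

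NCCIT had 24 of the 42 genes above all 6 ES lines, where 24.1% of all clusters were. The counts were 39 in 2102Ep (22.2% of all clusters), 36 in 833KE (20.6%), 37 in TERA1 (21%) and 37 in NTERA2 (22.4%) on plastic. On feeders they were 38 in NTERA2 (25.2%), 41 in 2102Ep (27.9%) and 37 in 833KE (19.2%). Among the 5 lines on plastic NCCIT was the lowest in 35 of the 42 genes (29.4% of all clusters), and 2102Ep was the highest in 25 (18.4%). NCCIT was below all ES lines in 5 of the 42, where 23% of all clusters were, with TEAD4 lowest at -1.02, and its largest value was ADIPOR2 at 1.38. The largest values were those of TIGAR in 2102Ep (2.92), 833KE (2.51) and TERA1 (2.19), and that of TULP3 in NTERA2 (2.28).

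Along the arm the genes fall into 3 stretches, split at the widest gaps between listed neighbours. From KDM5A to CACNA1C, 7 of 12 measured genes were higher in EC on plastic, with a median difference of 1.12. From FKBP4 to NDUFA9 the count was 10 of 12 (median 1.49), and from TNFRSF1A to PEX5 it was 10 of 18 (median 1.10). On feeders the counts were 4, 8 and 11 (medians 1.00, 1.41 and 1.30). Over the 42 genes the order along the arm and the difference on plastic had a Pearson correlation of 0.033 and a Spearman correlation of 0.029, which is a description across neighbouring genes from the same arrays. NCCIT was uneven along the arm, with medians of 0.28, 1.11 and 0.26 in the stretches from the telomere inwards. In 2102Ep on plastic they were 1.69, 1.68 and 1.59, and in NTERA2 on plastic 1.12, 0.93 and 1.12. Whether the middle stretch of NCCIT differs from its neighbours was not tested, since it is 1 array.

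**Figure D4:**
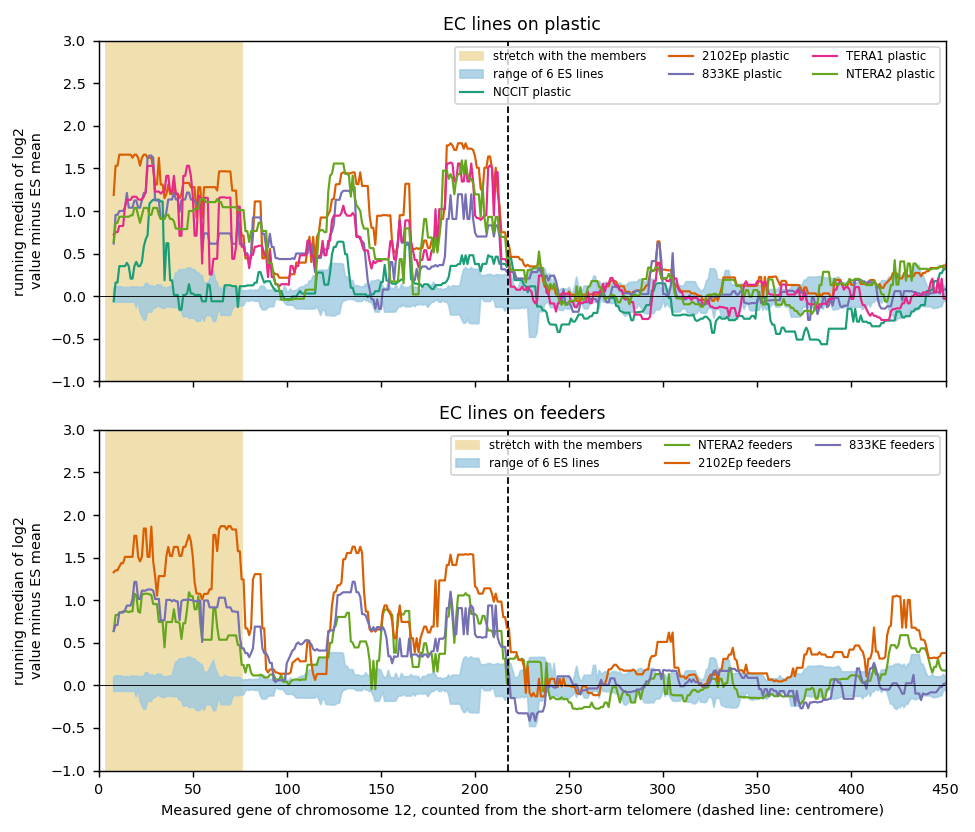
Running median over 15 neighbouring measured genes of the log2 value minus the ES mean, along chromosome 12 from the telomere of the short arm (gene number, first 450 genes; dashed line: centromere), for EC lines on plastic (top) and on feeders (bottom). The yellow band holds the listed genes, and the blue band is the range of the 6 ES lines. NCCIT is highest before the middle of the yellow band and falls back to the ES range beyond it, whereas the other EC lines stay above that range over nearly the whole band.

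The 31 other measured genes between KDM5A and PEX5 had a median difference of 0.44 on plastic, with 11 higher and 0 lower, and of 0.79 on feeders, with 10 higher and 0 lower. The 3 measured genes between the telomere and KDM5A had medians of -0.045 on plastic and -0.033 on feeders, with 0 called in either direction. For the 141 genes of 12p nearer the centromere, the medians were 0.71 on plastic (46 higher, 0 lower) and 0.71 on feeders (36 higher, 1 lower). The 567 measured genes of the long arm had medians of 0.056 on plastic (19 higher, 10 lower) and 0.11 on feeders (13 higher, 5 lower). The listed genes had the largest median of these sets on plastic and on feeders. Their list was made with earlier results of these data known, which can raise its median, and the difference between sets was not tested. Of the 42, 35 were brighter than the median cluster and 25 of these were called on plastic, against 2 of the 7 dimmer ones. That contrast is partly built in, since brightness is the mean over all arrays, EC arrays included. The shares of brighter and dimmer clusters called over the whole series were not compared.

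With both cell types on feeders, 23 of the 42 genes were higher in EC than in ES lines and 0 were lower, where 1.56% of all clusters were called higher and 0.731% lower. The median difference was 1.23, all 42 differences were above 0, and 40 had an unadjusted p under 0.05, as 17.6% of all clusters did in either direction. In 34 genes all 3 EC arrays lay above all 6 ES lines, as 5.78% of all clusters did. This comparison and the one on plastic share the ES lines, so their values are given side by side and not as independent evidence. On plastic and on feeders 18 genes were called in both, 9 on plastic alone, 5 on feeders alone and 10 in neither. The count on feeders fell to 11 without 2102Ep and to 14 without Shef3. Over all clusters, those called higher fell from 343 to 126 and 123 in the same runs. With the code range as a block 26 of the 42 genes were called, with KDM5A, PARP11, ING4 and USP5 added and LTBR lost. Over all clusters 279 were called higher in that run.

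For the same 3 lines, feeder and plastic cultures were compared with the line as a block, and 0 of the 42 genes were called (0.0% of all clusters, smallest adjusted p of the 42 genes 0.239). At an unadjusted p under 0.05 there were 6 of the 42 genes, about the same share as the 14.9% of all clusters, so the 6 are given as description only. WNT5B was the one with a positive difference, feeders minus plastic, of 0.87 (SE 0.20, unadjusted p = 0.00697). TULP3 differed by -0.86 (SE 0.18, unadjusted p = 0.00430), PARP11 by -0.79, AKAP3 by -0.72, KDM5A by -0.70 and USP5 by -0.47. WNT5B was higher on feeders in each of the 3 lines, by 0.89 in NTERA2, 1.23 in 2102Ep and 0.49 in 833KE. The median over the 42 genes was -0.0071 in NTERA2, 0.075 in 2102Ep and -0.14 in 833KE. A difference of up to 0.5 either way held for 22 of the 42 genes in NTERA2, 27 in 2102Ep and 34 in 833KE, against 66.3%, 71.5% and 71.4% of all clusters. One of up to 1 held for 38, 40 and 41 of them, against 89.9%, 93.7% and 91.7% of all clusters.

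Probesets gave a second view of the same RNA, on the same arrays, with 46 of the 47 genes represented by 886 probesets. KDM5A was the gene with none under a usable name. In EC on plastic 804 of the 886 had a higher mean than in ES lines, against 53.1% of all probesets. By limma 299 were called higher and 0 lower, adjusted over 287329 probesets, where 2.07% were called higher and 0.745% lower. The median difference was 1.00. Of the 663 brighter than the median probeset, 637 had the higher mean. Brightness is here too the mean over all arrays, EC arrays included, so that share is partly built in. For 45 of the 46 genes the median over probesets was above 0, and NRIP2 was the exception (-0.26, with 1 of 12 higher).

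In several genes nearly all probesets were called. All 12 probesets of RAD51AP1 and all 14 of NDUFA9 were called, as were 16 of 18 of TULP3, 17 of 19 of NOP2, 13 of 14 of ADIPOR2, 11 of 12 of TIGAR and 15 of 17 of PEX5. Those of TIGAR ran from 1.45 to 2.64. CACNA1C had 67 probesets, of which 44 had the higher mean and 0 were called, with 8 brighter than the median probeset. In CLSTN3 23 of 31 were higher and 0 were called. MRPL51 had 6 of 6 higher, between 0.93 and 1.36, with 0 called. The count of 299 fell to 155 without 2102Ep, to 181 without 833KE and to 125 among high-coded arrays alone. Over all probesets, those called higher fell from 5940 to 2651, 3241 and 1750 in the same runs.

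**Figure D5:**
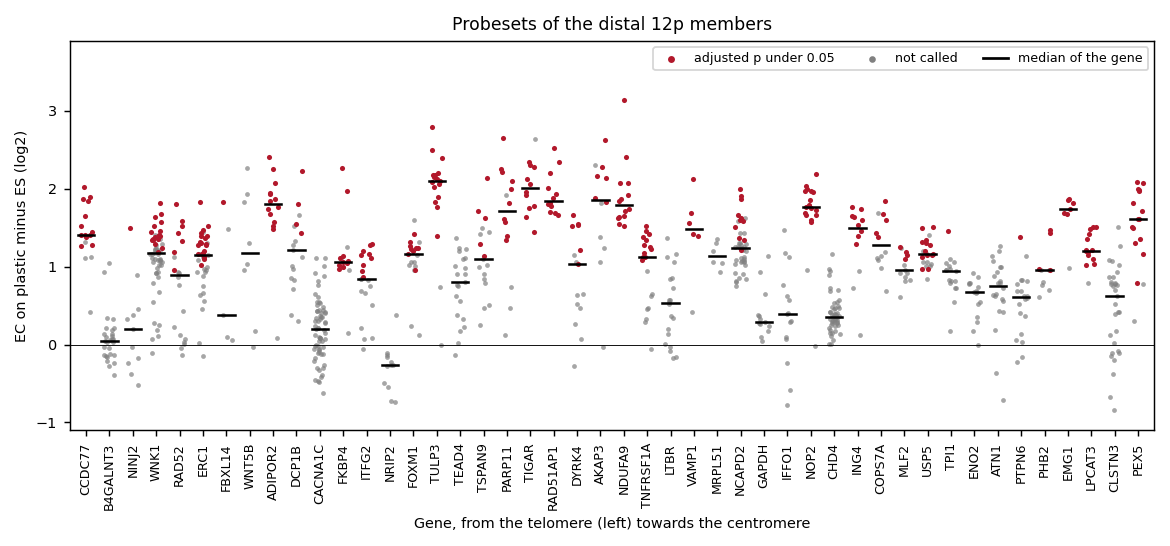
Difference of EC on plastic minus ES lines (log2) for each of the 886 probesets of 46 genes, ordered from the telomere (left), with the median of each gene; probesets called by limma are in red. All red points lie above 0, and NRIP2 is the one gene whose median is below 0.

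Of the listed genes, 3 pairs start head to head on opposite strands within 1000 bases of each other in the RefSeq annotation. KDM5A and CCDC77 start 27 bases apart and were both higher on plastic (1.60 and 1.51). PHB2 and EMG1 start 160 bases apart, with a median of 0.96 over the probesets of PHB2 and a difference of 1.66 in EMG1. MRPL51 and NCAPD2 start 840 bases apart, with a difference of 1.13 in MRPL51 that was not called and a median of 1.24 over the probesets of NCAPD2. The promoter windows are shown because each pair shares the stretch between its starts, though the windows of MRPL51 and NCAPD2 hold only its ends. They run 5′ to 3′ on the gene's strand from 250 bases before its start to 50 after it (RefSeq, GRCh38.p14), at chr12:389097-389396 on the plus strand for CCDC77, chr12:6970663-6970962 on the plus strand for EMG1, chr12:6493852-6494151 on the plus strand for NCAPD2 and chr12:6493213-6493512 on the minus strand for MRPL51. Capitals mark 3 short motifs on either strand: the CCAAT box (CCAAT or ATTGG), the GC box (GGGCGG or CCGCCC) and the core bound by ETS factors (CCGGAA or TTCCGG).
CCDC77: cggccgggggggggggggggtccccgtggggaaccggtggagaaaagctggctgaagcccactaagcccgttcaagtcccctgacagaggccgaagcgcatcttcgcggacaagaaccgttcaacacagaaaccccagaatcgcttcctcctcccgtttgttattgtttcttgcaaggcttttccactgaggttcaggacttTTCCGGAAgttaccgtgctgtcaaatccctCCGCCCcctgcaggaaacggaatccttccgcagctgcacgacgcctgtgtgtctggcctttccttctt
EMG1: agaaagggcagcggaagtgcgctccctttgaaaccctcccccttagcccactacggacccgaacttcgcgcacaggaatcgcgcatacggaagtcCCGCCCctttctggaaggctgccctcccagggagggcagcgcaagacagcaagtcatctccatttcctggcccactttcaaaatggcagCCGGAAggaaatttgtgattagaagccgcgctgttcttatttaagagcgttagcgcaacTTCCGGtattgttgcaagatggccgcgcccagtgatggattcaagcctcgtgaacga
NCAPD2: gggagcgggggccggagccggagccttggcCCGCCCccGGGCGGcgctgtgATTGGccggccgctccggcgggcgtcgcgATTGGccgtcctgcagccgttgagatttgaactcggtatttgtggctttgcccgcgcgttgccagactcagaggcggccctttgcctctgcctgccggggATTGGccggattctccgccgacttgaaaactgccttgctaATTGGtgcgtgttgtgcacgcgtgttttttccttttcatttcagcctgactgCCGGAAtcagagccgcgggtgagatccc
MRPL51: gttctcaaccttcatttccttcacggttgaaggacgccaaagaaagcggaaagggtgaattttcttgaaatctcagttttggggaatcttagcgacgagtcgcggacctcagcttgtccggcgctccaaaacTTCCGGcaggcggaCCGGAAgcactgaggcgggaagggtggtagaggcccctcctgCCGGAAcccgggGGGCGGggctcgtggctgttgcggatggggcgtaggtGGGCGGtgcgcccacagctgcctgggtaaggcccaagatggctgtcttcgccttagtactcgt

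The window of CCDC77 held 2 overlapping ETS cores, 1 on each strand, and 1 GC box. That of EMG1 held 2 ETS cores and 1 GC box, that of MRPL51 3 and 2, and that of NCAPD2 1 ETS core, 2 GC boxes and 4 CCAAT boxes. RefSeq windows were matched for 37 of the 47 genes, 54 windows in all. An ETS core was in 21 of these (38.9%, against 17.2% of all 34943 human windows), a GC box in 37 (68.5%, against 44.9%) and a CCAAT box in 18 (33.3%, against 34.6%). These are matches of letters and no measurement of binding.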

How the data were processed

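RNA of 14 cultures of EC and ES cell lines was hybridised to Affymetrix Human Exon 1.0 ST arrays. Per the submitters' processing notes, the authors used RMA, Affymetrix Expression Console and limma, and their versions, the RMA settings, the annotation release and the genome build are not given in the sources used here. Deposited were values of 22011 transcript clusters and of 287329 probesets, on a log2 scale by their range. Array medians differ, so the deposited summaries do not share 1 distribution. Whether probes were quantile normalised within RMA, before they were summarised, cannot be told from these medians. The deposited log2 values were used unchanged. Signal over background is unknown for single values. Precision is limited by how many arrays there are. All value columns were used.

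Symbols came from the platform annotation, with older names matched through RefSeq, and 14432 clusters had 1 symbol, 2408 several and 5171 none. Of several clusters of a gene (WNK1, CACNA1C and TSPAN9) the one with the highest mean stands for it. The probesets of TIGAR are named C12orf5. The order of genes and the promoter windows are RefSeq's. Groups were compared in R 4.3.3 by limma 3.58.1, with two-sided moderated tests from lmFit and eBayes, adjusted by Benjamini-Hochberg over all clusters or probesets at a threshold of 0.05. The fit was tested on simulated data. Comparisons with ES lines used no covariate. Feeder and plastic cultures of NTERA2, 2102Ep and 833KE were compared with the line as a block, since the labels give them the same line. With condition means removed, both cultures of a line correlated across clusters at 0.51, 0.41 and 0.34, and cultures of different lines below 0, which is partly built in. Summaries used Python 3.11.15 with pandas 2.3.3, and figures matplotlib 3.10.9.

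The genes, their role groups and the comparisons were chosen with earlier results of these data known. Values in every array are given for the 10 largest differences among genes called on plastic, the 4 lowest, up to 3 called on feeders but not on plastic, FOXM1 and GAPDH. Those of ENO2, NCAPD2 and the probesets of TPI1 were added after their values were seen. Alternatives were quantile normalisation, a filter on dim clusters, the code range (low or high) as a block or the high codes alone, 1 fit of all arrays, and leaving out each array. Comparison of the low-coded EC arrays with low-coded ES lines alone was added after seeing the data.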

Additional observations from a re-analysis of the deposited data

Results flagged for a closer look

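Among the groups of 5 or 6 arrays, 40 sets of levels were tested for a single array far from the rest, where chance flags about 1 in 20, and 2 were found. In ES lines NDUFA9 was at 8.33 in Shef6, against 8.94 to 9.20 in the other 5 lines, a gap of 0.698 of the group's range. In EC on plastic the median of the GAPDH probesets was 12.8 in NCCIT, against 13.3 to 13.5 in the other 4 lines, a gap of 0.824 of the range.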

How the results depend on the processing

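In EC on plastic against ES lines, 21 to 29 genes were called under the planned settings and 23 to 31 when 1 array was left out, always 0 lower. Over all clusters, 416 to 853 were called higher when 1 array was left out. Of the 27 calls, 23 held under every left-out array and 18 under every alternative run. On feeders the count ran from 17 to 26 under the other settings and from 11 to 24 when 1 array was left out (11 without 2102Ep, 14 without Shef3). Over all clusters 343 were called higher on feeders, against 126 without 2102Ep and 123 without Shef3. Of the 23 calls of listed genes on feeders, 10 held under every left-out array and 9 under every alternative run. For feeder against plastic cultures the fit with no replicate block also called 0 genes, as did all other settings. Probesets of the listed genes called ran from 155 to 438 when 1 array was left out, and were 125 among high-coded arrays. Over all probesets, 2651 to 7811 were called higher when 1 array was left out, and 1750 among high-coded arrays. Medians per EC array moved by less than the spread between lines under all settings. Reversals were limited to clusters that were never called. The dim cluster of TPI1, unlike its brighter probesets, was at -0.15 on plastic with the code range as a block and among high-coded arrays. It ran from -0.082 to 0.36 when 1 array was left out (below 0 without Shef5 or 2102Ep, -0.0031). On feeders that cluster ran from -0.12 to 0.33 (-0.083 without 2102Ep) and NRIP2 from -0.0070 to 0.21. B4GALNT3 on plastic ran from -0.059 to 0.23. The causes were not tested.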
